A study of Mus musculus with 18 samples.

Results

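Receptors coupled to G proteins were followed after axon injury in RNA-seq libraries from embryonic dorsal root ganglion (eDRG) spot cultures. The genes were the protein-coding members, by their GENCODE vM21 symbol, of the opioid, estrogen (Gper1), serotonin, adrenergic, muscarinic, dopamine, metabotropic glutamate, GABA-B, neuropeptide Y, galanin, somatostatin, bradykinin, prostaglandin E2, cannabinoid, lysophosphatidic acid, sphingosine-1-phosphate, P2Y, adenosine, protease-activated and Mas-related receptor families. The ligand-gated serotonin receptor genes were not included. Of 115 such genes, 114 had an identifier among the 47643 in the count tables, and Galr3 did not. Genes over 1 CPM (counts scaled to the size of the library) in at least 3 libraries were tested, which kept 49 of the 114 receptors and 13771 genes in all.

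The cultures were made from dorsal root ganglia of e13.5 CD-1 mice, with no engineered allele named in the labels, and were grown to day 7 in vitro as spots in medium that held FDU, which blocks cell division. All 6 groups shared this medium. The control group was collected uninjured, and in the other 5 groups the axons were cut with a blade and RNA was collected 1, 3, 8, 16 or 24 h post injury (HPI). The hour at which the control was collected is not given in the sources used here, and no uninjured group was paired with each time. The effect of the cut and that of added time in culture therefore cannot be told apart. Each group had 3 libraries, numbered replicate 1 to 3, for 18 libraries. The labels do not say from which litter or culture each replicate came, so the p-values measure the spread between these libraries.

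These receptors span the membrane and pass the binding of a transmitter, peptide, lipid, protease or nucleotide to a heterotrimeric G protein inside the cell. Gi/o proteins lower cyclic AMP and open GIRK potassium channels, Gs proteins raise cyclic AMP, and Gq/11 proteins activate phospholipase C. In sensory neurons, opioid, GABA-B and cannabinoid receptors are known as brakes on excitability and transmitter release, whereas bradykinin, prostaglandin and protease-activated receptors are known for sensitising the endings to painful stimuli.

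Library totals ranged from 9478891 to 23082327 counts on genes, the lowest in replicate 2 of 8 HPI. Residual rRNA took between 0.666 and 1.29% of the counts in 17 libraries and 2.15% in replicate 1 of 16 HPI. The 8 sensory neuron markers were all tested, and their levels summed to 5228 to 6083 CPM in controls, 4325 to 4997 CPM at 16 HPI and 4576 to 5248 CPM at 24 HPI. The control and 16 HPI sums did not overlap, and 2 of the 8 passed the test at 16 HPI, both lower, namely Tubb3, a neuronal tubulin (log2 fold change -0.40), and Prdm12, a regulator of nociceptor identity (-0.39). Tubb3 alone held 3250.2, 3102 and 2513 CPM in controls and 2458, 2393 and 1859 CPM at 16 HPI, and the other 6 markers had log2 fold changes between -0.18 and -0.01. At 24 HPI 2 passed as lower, among them Tubb3 (-0.37), and 2 as higher, Isl1 (0.26) and Pou4f1 (0.20). Fewer neurons in a culture and less RNA of a gene per neuron cannot be told apart in such bulk libraries. Of 10 markers of satellite glia and Schwann cells 4 were tested, and their sum of 73.1 to 131 CPM in controls and 57.5 to 98.1 CPM at 16 HPI was mostly S100b, which was lower at 16 HPI (-0.33) and 24 HPI (-0.26). The other 3 glial markers tested had log2 fold changes of 0.17 to 0.42 at 16 HPI and 0.67 to 0.88 at 24 HPI, which did not pass. The 6 fibroblast markers, 4 of them tested, summed to 2.58 to 9.68 CPM in controls and 4.53 to 14.7 CPM at 16 HPI, where Dcn rose (2.07). The 7 myeloid markers, 2 of them tested, summed to 3.54 to 5.13 and 5.401 to 6.06 CPM, where Cd68 rose (0.97), and the 5 endothelial markers, with 0 tested, to 1.55 to 1.73 and 1.08 to 1.63 CPM. The part of these cells in the receptor values was not tested.

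A larger share of the receptors than of all genes was lower at the late time points in the fit with a term for the replicate number. A gene passed the test with an adjusted p under 0.05 in edgeR (quasi-likelihood fit, Benjamini-Hochberg over all 13771 genes), and it was called when it also changed by more than 2-fold. At 16 HPI, 24 (48.98%) of the 49 tested receptors passed as lower than control, beside 11.5% of all genes, and 4 (8.16%) passed as higher, beside 10.7%. At 24 HPI, 20 (40.8%) were lower, beside 9.03%, and 1 (2.04%) was higher, beside 5.99%. At 8 HPI, 7 (14.3%) were lower, beside 3.90%, and 2 (4.08%) were higher, beside 3.78%. The counts of lower receptors moved with the libraries in the fit. Without control replicate 1, 15 were lower at 16 HPI, beside 8.94% of all genes, and 8 at 24 HPI, beside 6.99%. At 24 HPI the count was 10 without replicate 2 of 24 HPI, beside 7.02% of all genes, and 12 without control replicate 3, beside 6.45%. It was 13 without control replicate 2, beside 5.32%, or without replicate 1 of 24 HPI, beside 6.28%. At 8 HPI it was 3 without replicate 3 of 8 HPI, beside 1.29% of all genes. It was 4 without control replicate 3, beside 1.46%, or without replicate 1 of 8 HPI, beside 1.85%. Without the replicate term in edgeR, 2 were lower at 8 HPI, beside 0.0871% of all genes, 3 at 16 HPI, beside 2.18%, and 0 at 24 HPI, beside 0.675%, with 3, 14 and 8 lower at an unadjusted p under 0.05. The median log2 fold change of the 49 receptors was -0.11, -0.04, -0.11, -0.37 and -0.25 at 1, 3, 8, 16 and 24 HPI, and that of all genes tested was 0.00 at each time. All 5 comparisons share the same 3 control libraries.

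**Figure D1:**
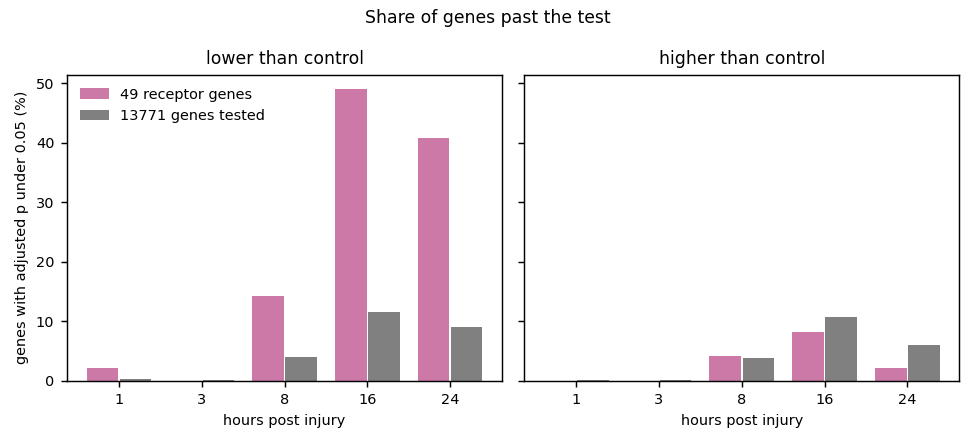
Share of genes with an adjusted p under 0.05 against control, in %, at each time after injury, for the 49 tested receptor genes and for all 13771 genes tested, with genes lower than control in one panel and higher in the other. The tallest receptor bar is that of genes lower at 16 HPI, where 24 of 49 receptors passed beside 11.5% of all genes.

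At 1 and 3 HPI at most 1 receptor passed the test with edgeR, and the 9 that passed at 8 HPI changed by less than 2-fold. With edgeR, 0 receptors were called at 1, 3 and 8 HPI, where 0.0290%, 0.0290% and 0.537% of all genes were called. DESeq2's Wald test also called 0, but it gave no adjusted p for 32, 30 and 4 of the 49 receptors, which it could not call. At an unadjusted p under 0.05 edgeR counted 8 (16.3%), 4 (8.16%) and 19 (38.8%) receptors, beside 12.8%, 14.5% and 22.0% of all genes. Oprm1, the mu opioid receptor, was the 1 receptor that passed at 1 HPI, where 0.182% of all genes passed as lower and 0.0944% as higher. At 3 HPI 0 receptors passed with edgeR, beside 0.145% of all genes lower and 0.0436% higher, and DESeq2 passed Gabbr2 as lower.

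Past the 2-fold limit, 7 (14.3%) receptors were called at 16 HPI, beside 1.49% of all genes. The 6 that were lower, where 0.312% of all genes were called lower, were Oprk1, Gper1, Npy2r, Chrm1, Chrm5 and Mrgprx1. The 1 higher was Adra1b, where 1.18% of all genes were called higher. At 24 HPI, 2 (4.08%) were called, beside 0.821%, with Chrm5 lower (beside 0.182%) and Adra1b higher (beside 0.639%). The fit held the replicate number as a block, and without the replicate block the 6 lower receptors had log2 fold changes between -2.11 and -1.10 with edgeR adjusted p between 0.113 and 0.337, so that only Adra1b was called at 16 HPI. Replicate 1 was the highest library in all 6 groups for Oprk1, Npy2r and Chrm5.

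**Figure D2:**
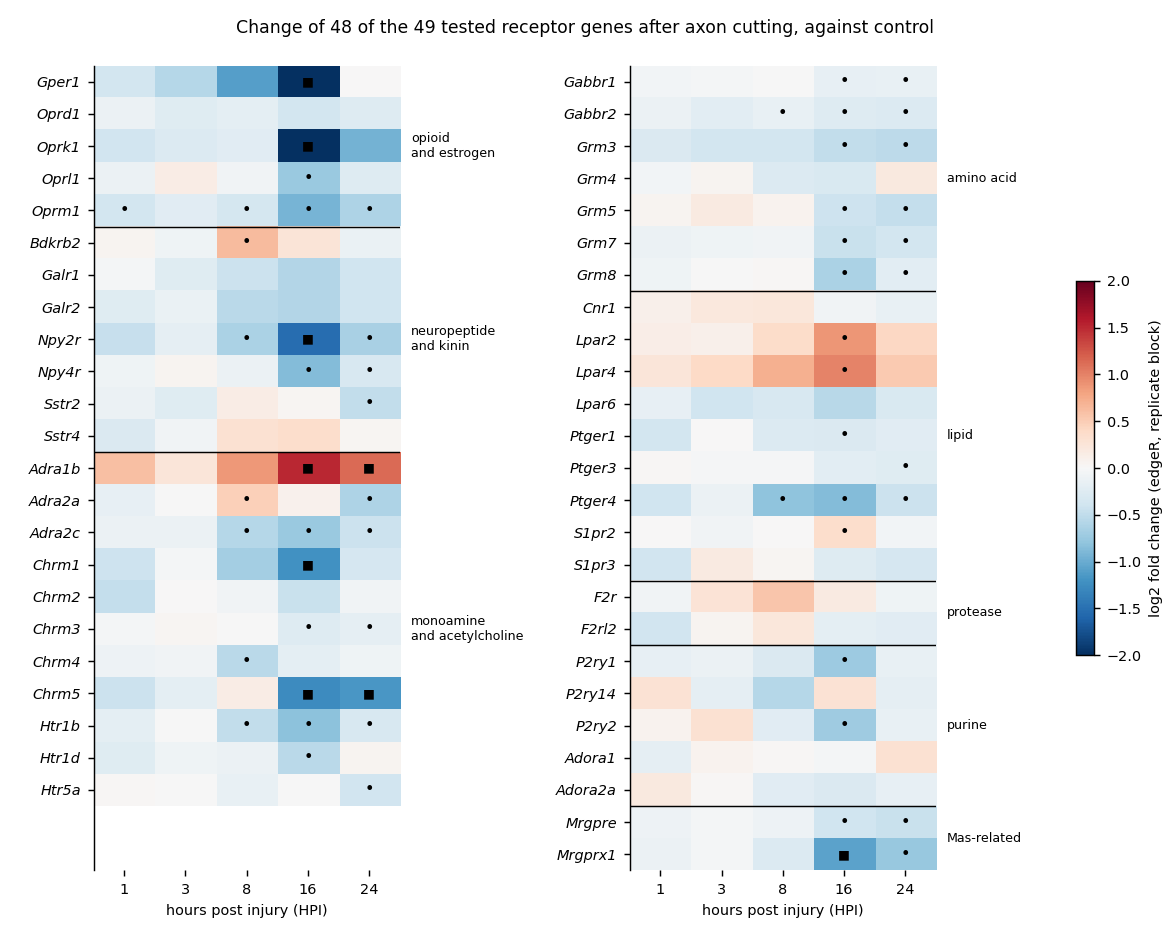
log2 fold change against control of the tested receptor genes (rows, by role, with 1 gene left out) at 1, 3, 8, 16 and 24 HPI (columns), with blue lower and red higher. Dots mark an adjusted p under 0.05 and squares mark called genes, of which the 16 HPI column holds 7 and the 24 HPI column 2.

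The promoters of 4 receptors that changed at 16 HPI are shown because 2 of these genes rose and 2 fell. They are RefSeq windows on GRCm38.p6, from 250 bases before to 50 bases after an annotated start, written 5′ to 3′ along the gene. Capitals mark matches, on either strand, to an AP-1 site (TGANTCA), a cyclic AMP response element (TGACGTCA), a TATA box (TATAAA) or a GC box (GGGCGG).
Adra1b, chr11:43901188-43901487, minus strand: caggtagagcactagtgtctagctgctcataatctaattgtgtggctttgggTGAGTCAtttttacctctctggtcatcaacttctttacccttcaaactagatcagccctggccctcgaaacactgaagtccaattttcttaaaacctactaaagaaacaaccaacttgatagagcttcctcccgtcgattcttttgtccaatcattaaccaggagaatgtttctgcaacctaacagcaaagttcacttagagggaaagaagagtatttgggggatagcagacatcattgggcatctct
Lpar2, chr8:69822315-69822614, plus strand: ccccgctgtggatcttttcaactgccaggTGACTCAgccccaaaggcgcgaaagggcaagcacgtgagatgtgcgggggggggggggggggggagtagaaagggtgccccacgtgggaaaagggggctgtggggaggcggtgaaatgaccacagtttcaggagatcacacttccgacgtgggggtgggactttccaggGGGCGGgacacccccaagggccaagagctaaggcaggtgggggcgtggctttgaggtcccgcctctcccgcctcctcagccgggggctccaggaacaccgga
Npy2r, chr3:82548036-82548335, minus strand: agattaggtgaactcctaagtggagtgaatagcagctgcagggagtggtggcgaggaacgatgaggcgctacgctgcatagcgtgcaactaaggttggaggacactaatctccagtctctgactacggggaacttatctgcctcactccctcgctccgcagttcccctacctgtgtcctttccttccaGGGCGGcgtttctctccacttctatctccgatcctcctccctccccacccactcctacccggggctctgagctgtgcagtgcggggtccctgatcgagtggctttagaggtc
Gper1, chr5:139422929-139423228, plus strand: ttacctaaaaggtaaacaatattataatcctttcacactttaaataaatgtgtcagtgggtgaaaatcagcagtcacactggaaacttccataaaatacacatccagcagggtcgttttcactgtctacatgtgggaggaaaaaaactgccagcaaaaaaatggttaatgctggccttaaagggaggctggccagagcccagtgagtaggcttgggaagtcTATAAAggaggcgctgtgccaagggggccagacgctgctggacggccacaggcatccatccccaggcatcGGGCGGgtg
Adra1b and Lpar2, both higher at 16 HPI, each held 1 AP-1 match, which 7.81% of all 32851 RefSeq promoters hold. Npy2r and Gper1, both lower, held none, and Gper1 held a TATA box, which 13.6% of all promoters hold. Lpar2, Npy2r and Gper1 each held a GC box, which 35.7% of all promoters and 30 of the 57 RefSeq promoters of tested receptors (52.6%) hold. Among these 57 promoters, of 41 receptors, 8 held an AP-1 match, and their genes were Adora1, Adra1b, F2r, F2rl2, Grm8, Lpar2 and P2ry14. Of these 7 genes Adra1b and Lpar2 passed as higher at 16 HPI, Grm8 passed as lower and the other 4 did not pass. Lpar4 and S1pr2, which also passed as higher at 16 HPI, had RefSeq promoters without an AP-1 match. The response element was in 2 of the 57 promoters, those of S1pr2 and Sstr2, beside 1.79% of all. A match is a run of letters and not a site shown to be bound.

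The opioid receptors and Gper1 were the role group with the lowest median at 16 HPI, -0.94 on the log2 scale. Of these 5 genes 4 passed as lower, beside 24 of all 49 receptors tested and 11.5% of all genes. The group joins Gper1 to the opioid family, and the receptors were chosen with earlier results of these data known, so this rank is descriptive only. Gper1 and Oprk1 were over 1 CPM in 3 and 6 libraries, with 0 of these at 16 HPI, so both had room to fall. Oprk1, the kappa opioid receptor for dynorphin, lies at chr1:5588466-5606131 on the plus strand. Its control libraries held 2.24, 0.664 and 1.35 CPM in replicates 1, 2 and 3, and at 16 HPI it held 0.568, 0.283 and 0.216 CPM. All 3 libraries at 16 HPI were under the lowest control. The levels were 1.87, 0.698 and 0.744 CPM at 1 HPI, 2.26, 0.741 and 0.595 at 3 HPI, 2.12, 0.954 and 0.757 at 8 HPI and 1.10, 0.187 and 0.914 at 24 HPI, which overlapped control at each time. At 16 HPI the log2 fold change was -1.99 (SE 0.39, edgeR adjusted p = 7.5e-04), and at 24 HPI it was -0.94 (edgeR adjusted p = 0.0507). The counts were low, 17 at 16 HPI against 81 in controls, for a ratio of 0.226 with a 95% exact interval of 0.125 to 0.384 that covers counting error only. From 8 to 16 HPI the log2 fold change was -1.76 (SE 0.41, edgeR adjusted p = 0.00585).

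Gper1, a membrane receptor that responds to estrogen, lies at chr5:139423151-139427800 on the plus strand. Controls held 1.32, 0.295 and 0.723 CPM, and 16 HPI held 0.284, 0.170 and 0.108 CPM. The highest library at 16 HPI was just under the lowest control, and the sums were 9 counts at 16 HPI against 45 in controls, for a ratio of 0.215 with a 95% exact interval of 0.0924 to 0.445. The fitted log2 fold change was -2.06 (SE 0.52, edgeR adjusted p = 0.00644). Gper1 was tested because 3 libraries passed 1 CPM, replicate 1 of control, 3 HPI and 24 HPI, and a gene that passes this filter through groups where it is high had room to fall. At 1, 3 and 8 HPI the levels were 0.854, 0.598 and 0.372, then 1.02, 0.218 and 0.433, then 0.302, 0.742 and 0.252 CPM, each group overlapping control. By 24 HPI it held 1.35, 0.514 and 0.594 CPM, in the range of controls, and the fitted change against control was 0.01 on the log2 scale. From 16 to 24 HPI it rose by 2.07 (SE 0.52, edgeR adjusted p = 0.0130), in all 3 replicates, and it was the 1 receptor called between these times, beside 0.508% of all genes. Without replicate 1 of 16 HPI this call was lost (2.04, edgeR adjusted p = 0.0850), and DESeq2 gave no adjusted p for it.

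Oprm1, the receptor for morphine and endorphins, passed at 4 of the 5 times. Controls held 49.7, 26.9 and 30.4 CPM, and 1 HPI held 40.5, 20.0 and 23.2 CPM. Each library at 1 HPI was under the control of its own number, while the groups overlapped because replicate 1 was highest in every group. The levels were 46.5, 21.4 and 24.9 CPM at 3 HPI, 43.1, 21.2 and 21.6 at 8 HPI, 28.9, 12.7 and 15.3 at 16 HPI and 36.8, 14.6 and 20.1 at 24 HPI, so that each replicate was lowest at 16 HPI. The log2 fold changes were -0.36, -0.23, -0.35, -0.94 and -0.62 at 1, 3, 8, 16 and 24 HPI, with edgeR adjusted p of 0.0396, 0.160, 0.00812, 7.2e-08 and 1.6e-05. From 16 to 24 HPI it rose by 0.32 (SE 0.08, edgeR adjusted p = 0.0130).

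Oprl1, the nociceptin receptor, stood highest of the opioid family in controls by RPKM, at 7.96 ± 2.24 (CPM divided by the union of exons in kilobases, mean ± SD, n = 3). Oprm1 followed at 4.44 ± 1.53, the delta receptor Oprd1 at 0.486 ± 0.216 and Oprk1 at 0.155 ± 0.0862 RPKM. The order of Oprl1 and Oprm1 depends on the length used, 3753 bases for Oprl1 and 8037 for Oprm1. Their longest transcripts are 3102 and 2420 bases, and divided by these Oprm1 stands higher. In CPM, Oprm1 was above Oprl1 in control replicates 1 and 3. Oprl1 held 39.2, 27.6 and 22.9 CPM in controls, 20.4, 16.5 and 15.7 CPM at 16 HPI and 30.7, 18.1 and 25.55 CPM at 24 HPI. Its libraries at 16 HPI were all under the lowest control, and it was 1.68-fold lower (edgeR adjusted p = 3.8e-05). From 16 to 24 HPI it rose by 0.49 on the log2 scale (SE 0.11, edgeR adjusted p = 0.00528). Oprd1 held 1.02, 2.73 and 2.12 CPM in controls and 0.924, 1.47 and 2.00 CPM at 16 HPI, and its log2 fold change of -0.37 (SE 0.25) did not pass. Replicate 1 was the lowest library of every group for Oprd1 and the highest for Oprk1, Oprl1 and Oprm1.

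**Figure D3:**
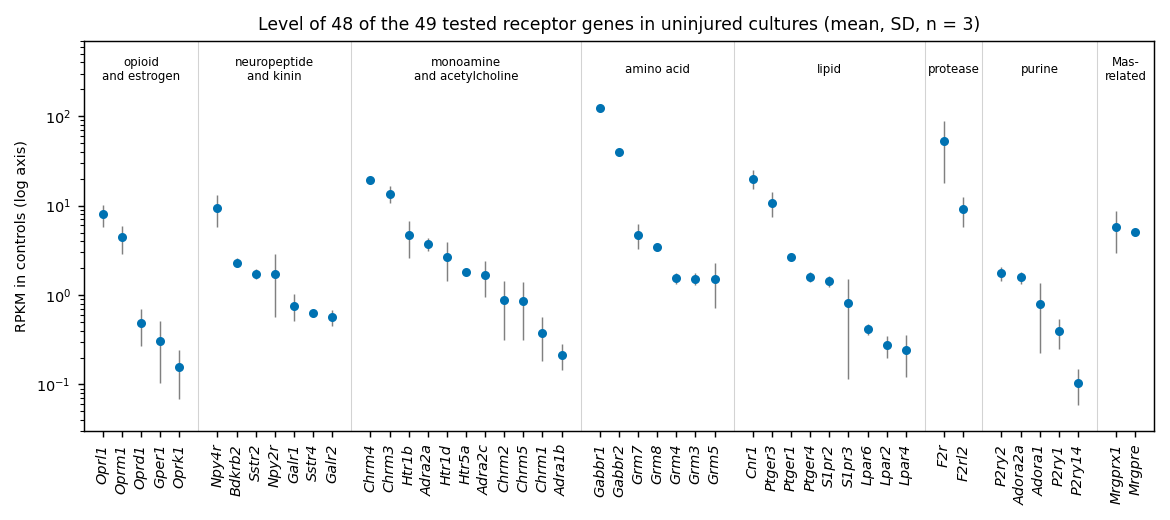
Level of the tested receptor genes, with 1 left out, in the 3 uninjured control libraries, as mean RPKM on a log axis with the SD as bars, grouped by role. Gabbr1 was highest at 125 RPKM and P2ry14 lowest at 0.103 RPKM.

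Among the receptors for neuropeptides and kinins, the 2 neuropeptide Y receptors tested fell. Npy2r, a Gi/o receptor known on sensory nerve terminals, lies at chr3:82538383-82548084 on the minus strand. Controls held 10.2, 3.83 and 3.28 CPM, and 16 HPI held 3.27, 1.75 and 0.918 CPM, with the highest library at 16 HPI just under the lowest control. The other times held 7.47, 2.79 and 2.42 CPM at 1 HPI, 10.4, 2.57 and 2.97 at 3 HPI, 6.65, 2.97 and 1.77 at 8 HPI and 4.96, 3.27 and 2.24 at 24 HPI. Each of these groups overlapped control, and replicate 1 was highest in all of them. The log2 fold change was -0.64 at 8 HPI (edgeR adjusted p = 0.0466), -1.53 at 16 HPI (SE 0.21, edgeR adjusted p = 2.6e-05) and -0.65 at 24 HPI (edgeR adjusted p = 0.0210). From 16 to 24 HPI it rose by 0.88 (SE 0.23, edgeR adjusted p = 0.0162), in all 3 replicates.

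Npy4r, the receptor for pancreatic polypeptide, was the most abundant of the group of neuropeptide and kinin receptors, which leaves out the opioid family, at 9.49 ± 3.75 RPKM in controls. It held 25.4, 50.1 and 27.8 CPM in controls, 11.4, 25.1 and 20.0 CPM at 16 HPI and 19.7, 37.9 and 25.2 CPM at 24 HPI. All 3 libraries at 16 HPI were under the lowest control, and the fall was 1.82-fold (edgeR adjusted p = 1.0e-05), after which it rose by 0.55 on the log2 scale to 24 HPI (edgeR adjusted p = 0.00297). Bdkrb2, the bradykinin receptor present without inflammation and next in level in that group at 2.31 ± 0.260 RPKM, moved the other way and earlier. Its controls held 9.61, 7.67 and 8.96 CPM, 8 HPI held 17.0, 10.9 and 12.5 CPM and 16 HPI held 10.1, 12.1 and 9.02 CPM. All 3 libraries at 8 HPI were above the highest control, and the rise was 1.54-fold (edgeR adjusted p = 0.00664), which was lost without replicate 1 of 8 HPI (0.50, edgeR adjusted p = 0.0745). Sstr2, a somatostatin receptor at 1.73 RPKM in controls, was 1.41-fold lower at 24 HPI (edgeR adjusted p = 0.0441) and lost this under 9 of 13 alternatives. The galanin receptors Galr1 and Galr2 and the somatostatin receptor Sstr4 did not pass against control at any time.

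The 5 muscarinic acetylcholine receptors were all tested, and they differed in level and in time course. Chrm4 and Chrm3 were the most abundant of the monoamine and acetylcholine group, at 19.4 ± 1.02 and 13.6 ± 2.85 RPKM in controls, followed by the serotonin receptor Htr1b at 4.653 ± 2.07. The order of Chrm4 and Chrm3 depends on the length used, since the union of exons of Chrm3 is 6253 bases and its longest transcript 4336. Chrm1 and Chrm5, both coupled to Gq/11, were low, at 0.374 ± 0.190 and 0.848 ± 0.535 RPKM, and were the ones called. Chrm5 lies at chr2:112479171-112480769 on the minus strand. Its controls held 2.34, 0.958 and 0.771 CPM, 8 HPI held 1.81, 1.38 and 1.26 CPM, 16 HPI held 0.995, 0.340 and 0.378 CPM and 24 HPI held 0.980, 0.514 and 0.320 CPM. Every library at 16 HPI was under every library at 8 HPI, and at 16 and 24 HPI replicate 1 alone overlapped control. At 1 and 3 HPI it held 1.71, 0.797 and 0.496, and then 1.56, 1.00 and 0.919 CPM. The change against control was -1.26 on the log2 scale at 16 HPI (SE 0.30, edgeR adjusted p = 0.00410) and -1.17 at 24 HPI (SE 0.28, edgeR adjusted p = 0.00809), and from 8 to 16 HPI -1.41 (SE 0.30, edgeR adjusted p = 0.00324). Without control replicate 1 it did not pass at 16 HPI (-1.004, edgeR adjusted p = 0.0708) or 24 HPI (-0.91, edgeR adjusted p = 0.108). Chrm5 and Oprk1 were the 2 receptors called from 8 to 16 HPI, beside 0.937% of all genes. Each was over 1 CPM in 6 libraries and in 0 at 16 HPI, so both had room to fall to 16 HPI.

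Chrm1 lies at chr19:8663789-8683587 on the plus strand. It held 3.71, 1.25 and 2.31 CPM in controls and 1.35, 0.736 and 0.972 CPM at 16 HPI, where replicate 1 was above control replicate 2. At the other times it held 3.36, 0.997 and 1.12 CPM (1 HPI), 4.26, 1.00 and 2.00 (3 HPI), 2.24, 1.38 and 1.16 (8 HPI) and 2.14, 0.607 and 2.83 (24 HPI), all overlapping control. Its change at 16 HPI was -1.21 on the log2 scale (SE 0.34, edgeR adjusted p = 0.0127), which did not pass without replicate 1 of 16 HPI (-1.02, edgeR adjusted p = 0.0999). At 24 HPI it was -0.33 (edgeR adjusted p = 0.485). Chrm4 changed at 8 HPI, with 26.9, 27.1 and 29.6 CPM in controls and 19.3, 19.9 and 18.4 CPM at 8 HPI. These groups did not overlap, the fall was 1.46-fold (edgeR adjusted p = 4.6e-04), and to 16 HPI it rose by 0.36 on the log2 scale (edgeR adjusted p = 0.00767). Chrm3 was 1.19-fold lower at 16 HPI (edgeR adjusted p = 8.2e-04), and Chrm2 did not pass against control at any time.

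The adrenergic receptors moved in different directions. Adra1b, a Gq/11 receptor for noradrenaline, lies at chr11:43774606-43901210 on the minus strand and was the receptor with the largest fitted rise at 16 HPI. Controls held 0.457, 0.885 and 0.819 CPM, 16 HPI held 1.99, 2.26 and 1.89 CPM and 24 HPI held 1.84, 2.06 and 0.914 CPM. All libraries at 16 and 24 HPI were above the highest control, the closest being replicate 3 of 24 HPI. The earlier levels were 0.907, 0.847 and 1.55 CPM at 1 HPI, 0.809, 0.958 and 0.757 at 3 HPI and 1.21, 1.06 and 1.46 at 8 HPI. The 8 HPI libraries were also above every control, though that log2 fold change of 0.86 did not pass (edgeR adjusted p = 0.146). It rose by 1.51 at 16 HPI (SE 0.31, edgeR adjusted p = 0.00129) and 1.14 at 24 HPI (SE 0.32, edgeR adjusted p = 0.0198). No control library reached 1 CPM, so the gene was tested through libraries of the injured groups, and a gene kept in this way had room to rise. The call at 16 HPI held in all 12 alternatives that could be fitted. That at 24 HPI was lost without control replicate 1 (0.90, edgeR adjusted p = 0.108), without replicate 1 of 24 HPI (0.96, edgeR adjusted p = 0.0923), without replicate 2 of 24 HPI (0.91, edgeR adjusted p = 0.114) and without the replicate block (1.16, edgeR adjusted p = 0.118).

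Adra2a, a Gi/o receptor for noradrenaline, was higher at 8 HPI and lower at 24 HPI. Controls held 14.6, 20.6 and 18.5 CPM, 8 HPI held 21.2, 26.1 and 26.9 CPM, 16 HPI held 17.9, 16.7 and 22.3 CPM and 24 HPI held 8.88, 12.1 and 13.53 CPM. The 8 HPI libraries were all above and the 24 HPI libraries all under the range of controls. On the log2 scale the change was 0.47 at 8 HPI (edgeR adjusted p = 0.0110), -0.62 at 24 HPI (edgeR adjusted p = 9.9e-04) and -0.71 from 16 to 24 HPI (edgeR adjusted p = 3.8e-04). Adra2c, its close relative, was 1.66-fold lower at 16 HPI (edgeR adjusted p = 3.6e-04), with 8.23, 3.24 and 5.93 CPM in controls and 5.12, 2.09 and 3.29 CPM at 16 HPI. These groups overlapped, with each library under the control of its own number.

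The serotonin receptors tested were Htr1b, Htr1d and Htr5a. Htr1b and Htr1d, the targets of triptans, fell at 16 HPI by 1.77-fold (edgeR adjusted p = 4.6e-06) and 1.45-fold (edgeR adjusted p = 0.0273), the latter lost under 4 of 13 alternatives. Htr1b held 33.1, 17.9 and 14.9 CPM in controls, 21.2, 12.4 and 12.2 CPM at 8 HPI, 15.6, 11.1 and 9.67 CPM at 16 HPI and 24.5, 13.6 and 14.3 CPM at 24 HPI. Its replicate 1 was highest in every group, and each library from 8 HPI on was under the control of its own number. From 16 to 24 HPI Htr1b rose by 0.51 (edgeR adjusted p = 0.00216) and Htr1d by 0.59 (edgeR adjusted p = 0.0293) on the log2 scale. Htr5a was 1.30-fold lower at 24 HPI (edgeR adjusted p = 0.0314) and lost this under 7 of 13 alternatives. Another gene, D430036J16Rik, overlaps 18.04% of the exon length of Htr1b, and the strand used in counting is not given in the sources used here.

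The receptors for amino acid transmitters included the most abundant receptor and moved by small amounts. Gabbr1 and Gabbr2, the partners that form the GABA-B receptor, stood at 125 ± 3.09 and 39.8 ± 3.66 RPKM in controls. Gabbr1 held 959, 957 and 999 CPM in controls and 854, 889 and 861 CPM at 16 HPI, a 1.12-fold fall with no overlap (edgeR adjusted p = 0.0145), which was lost under 5 of 13 alternatives. Gabbr2 held 243, 263 and 291 CPM in controls and 202, 218 and 241 CPM at 24 HPI, 1.21-fold lower with no overlap (edgeR adjusted p = 4.7e-04). Of the 6 metabotropic glutamate receptors tested, 4 passed as lower at both 16 and 24 HPI, where 11.5% and 9.03% of all genes did. Grm8, a Gi/o receptor that lowers transmitter release, held 36.8, 30.5 and 35.7 CPM in controls, 22.6, 20.1 and 23.7 CPM at 16 HPI and 33.7, 24.6 and 30.8 CPM at 24 HPI. It was 1.55-fold lower at 16 HPI with no overlap (edgeR adjusted p = 1.9e-06), in all 13 alternatives, and rose by 0.42 on the log2 scale to 24 HPI (edgeR adjusted p = 5.5e-04). Grm7, at 4.70 RPKM in controls, was 1.37-fold lower at 16 HPI (edgeR adjusted p = 4.7e-04). Grm3 was 1.44-fold (edgeR adjusted p = 0.0170) and Grm5 1.39-fold lower (edgeR adjusted p = 0.00978) at 24 HPI, and these were lost under 6 and 3 of 13 alternatives. Grm4 did not pass against control and rose by 0.49 from 16 to 24 HPI (edgeR adjusted p = 0.0189).

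Of the 9 lipid receptors tested, 3 passed as higher and 2 as lower at 16 HPI, beside 10.7% and 11.5% of all genes. Their median log2 fold change was -0.21. The 3 that were higher were among the 4 receptors that passed as higher at that time. Lpar4 and Lpar2, receptors for lysophosphatidic acid, were 1.99-fold (edgeR adjusted p = 0.0123) and 1.85-fold higher (edgeR adjusted p = 0.0126), and S1pr2, a receptor for sphingosine-1-phosphate, was 1.28-fold higher (edgeR adjusted p = 0.0166). Lpar4 held 1.27, 0.442 and 1.35 CPM in controls and 2.27, 1.58 and 2.43 CPM at 16 HPI, with no overlap. Lpar2 held 2.08, 1.18 and 1.54 CPM in controls and 4.05, 1.98 and 3.08 CPM at 16 HPI, where replicate 2 overlapped control. S1pr2 held 10.4, 10.6 and 13.4 CPM in controls and 14.6, 13.9 and 15.6 CPM at 16 HPI, without overlap, and its log2 fold change to 24 HPI was -0.41 (edgeR adjusted p = 0.0131). Each of these 3 rises was lost without the replicate block and in 2 of the 6 fits that left out 1 library of the compared groups. Those were control replicate 3 (0.77, edgeR adjusted p = 0.0773) and 16 HPI replicate 1 (0.65, edgeR adjusted p = 0.108) for Lpar2, control replicate 2 (0.80, edgeR adjusted p = 0.0557) and 16 HPI replicate 3 (0.88, edgeR adjusted p = 0.0730) for Lpar4, and control replicate 1 (0.30, edgeR adjusted p = 0.0881) and 16 HPI replicate 1 (0.34, edgeR adjusted p = 0.0547) for S1pr2.

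Ptger4, a Gs-coupled prostaglandin E2 receptor, passed as lower at 8, 16 and 24 HPI. It held 11.2, 8.99 and 11.6 CPM in controls, 8.75, 7.03 and 8.56 CPM at 1 HPI, 12.02, 9.72 and 7.62 CPM at 3 HPI, 6.23, 5.94 and 6.21 CPM at 8 HPI, 6.18, 5.49 and 5.73 CPM at 16 HPI and 8.14, 7.10 and 8.32 CPM at 24 HPI. At each of these times except 3 HPI all libraries were under the lowest control, though the log2 fold change of -0.40 at 1 HPI did not pass (edgeR adjusted p = 0.168). It was 1.83-fold lower at 16 HPI (edgeR adjusted p = 4.0e-05), in all 13 alternatives, and it rose by 0.44 on the log2 scale to 24 HPI (edgeR adjusted p = 0.0357). Ptger3 was 1.19-fold lower at 24 HPI (edgeR adjusted p = 0.0467) and Ptger1 1.23-fold lower at 16 HPI (edgeR adjusted p = 0.0264), and these were lost under 7 and 9 of 13 alternatives. The counts of Ptger1 are uncertain, since they may include reads of an overlapping gene. Cnr1, the CB1 cannabinoid receptor, was the most abundant lipid receptor at 20.1 ± 4.84 RPKM, ahead of Ptger3 at 10.7 ± 3.34 and Ptger1 at 2.67 ± 0.172 RPKM. Cnr1 held 163, 125 and 101 CPM in controls and 138, 97.9 and 133 CPM at 16 HPI, and did not pass against control at any time, and neither did Lpar6 or S1pr3.

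**Figure D4:**
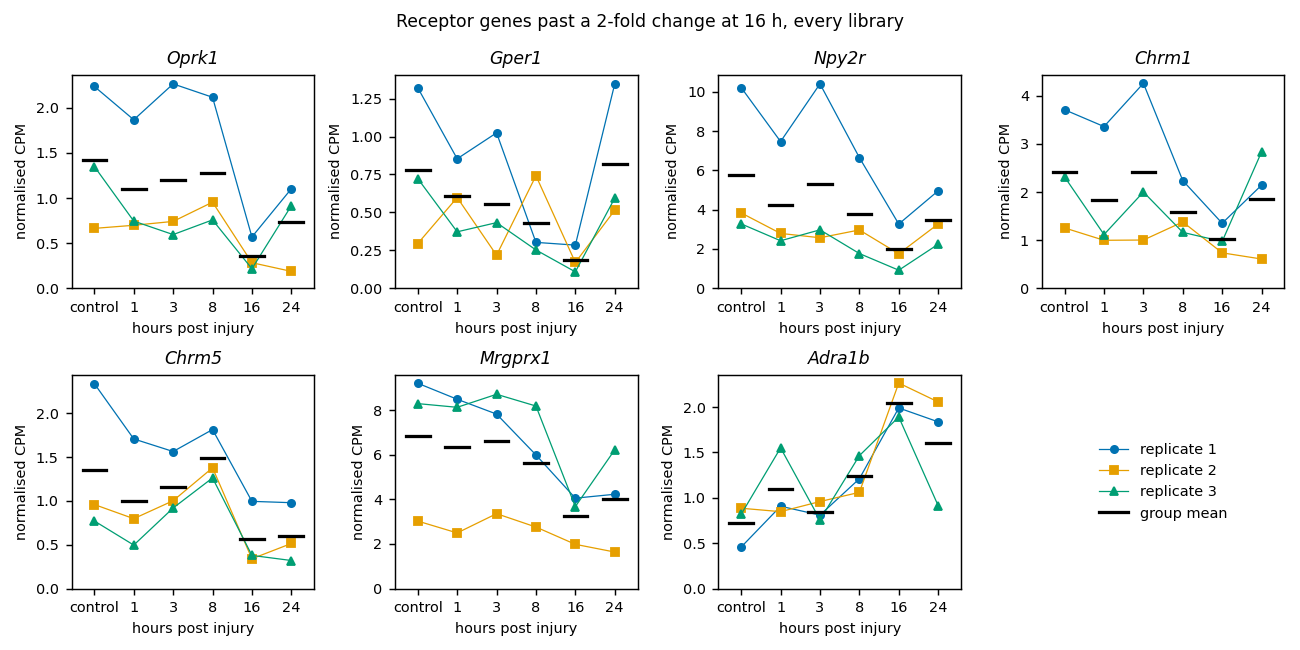
Normalised CPM of the 7 receptor genes called at 16 HPI in each of the 18 libraries, with lines joining libraries of the same replicate number and black bars for the group means. At 16 HPI the mean of Oprk1 was 0.356 CPM and that of Gper1 0.187 CPM, and that of Adra1b was 2.05 CPM.

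The protease-activated receptors F2r, the thrombin receptor, and F2rl2 did not pass against control at any time. F2r stood at 53.3 ± 35.2 RPKM in controls, where its libraries held 269, 219 and 45.1 CPM, with replicate 3 the lowest. F2rl2 stood at 9.06 ± 3.35 RPKM, and its log2 fold change from 8 to 16 HPI was -0.42 (edgeR adjusted p = 0.0109). Of the purine receptors, P2ry2, which responds to ATP and UTP, held 7.98, 7.00 and 5.54 CPM in controls, 4.33, 3.00 and 5.08 CPM at 16 HPI and 6.49, 4.95 and 6.90 CPM at 24 HPI. Its groups did not overlap at 16 HPI, where it was 1.63-fold lower (edgeR adjusted p = 0.00260), in all 13 alternatives, and it rose by 0.56 on the log2 scale to 24 HPI (edgeR adjusted p = 0.0277). P2ry1, an ADP receptor, was 1.65-fold lower at 16 HPI (edgeR adjusted p = 0.0196) and lost this under 7 of 12 alternatives, and another gene, Gm37035, overlaps 23.1% of its exon length. P2ry2 was the highest purine receptor in controls at 1.74 RPKM, then Adora2a at 1.57 and Adora1 at 0.796, and these adenosine receptors and P2ry14 did not pass against control at any time.

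Of the 20 Mas-related receptors in the tables, a family best known in itch and pain neurons, 2 were tested. Mrgprx1 lies at chr7:48020971-48027597 on the minus strand and stood at 5.79 ± 2.83 RPKM in controls. Its controls held 9.20, 3.02 and 8.29 CPM, 16 HPI held 4.05, 1.98 and 3.67 CPM and 24 HPI held 4.22, 1.64 and 6.22 CPM. Replicate 2 was lowest in all 6 groups, and each library at 16 HPI was under the control of its own number although the groups overlapped. At 1, 3 and 8 HPI it held 8.48, 2.49 and 8.12, then 7.82, 3.35 and 8.70, then 5.99, 2.76 and 8.18 CPM. The change was -1.07 on the log2 scale at 16 HPI (SE 0.17, edgeR adjusted p = 8.6e-05) and -0.76 at 24 HPI (SE 0.15, edgeR adjusted p = 0.00208). It was under 2-fold, but still passed the test, without control replicate 1 (-0.93, edgeR adjusted p = 0.00190) and without replicate 3 of 16 HPI (-0.87, edgeR adjusted p = 0.00345). Mrgpre, at 5.03 ± 0.392 RPKM, held 20.3, 19.1 and 17.3 CPM in controls and 13.1, 14.6 and 13.6 CPM at 24 HPI, 1.37-fold lower with no overlap (edgeR adjusted p = 0.0129), which was lost under 3 of 13 alternatives. Reads of Mas-related genes with near-identical copies may be split between them, so values in this family are uncertain.

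**Figure D5:**
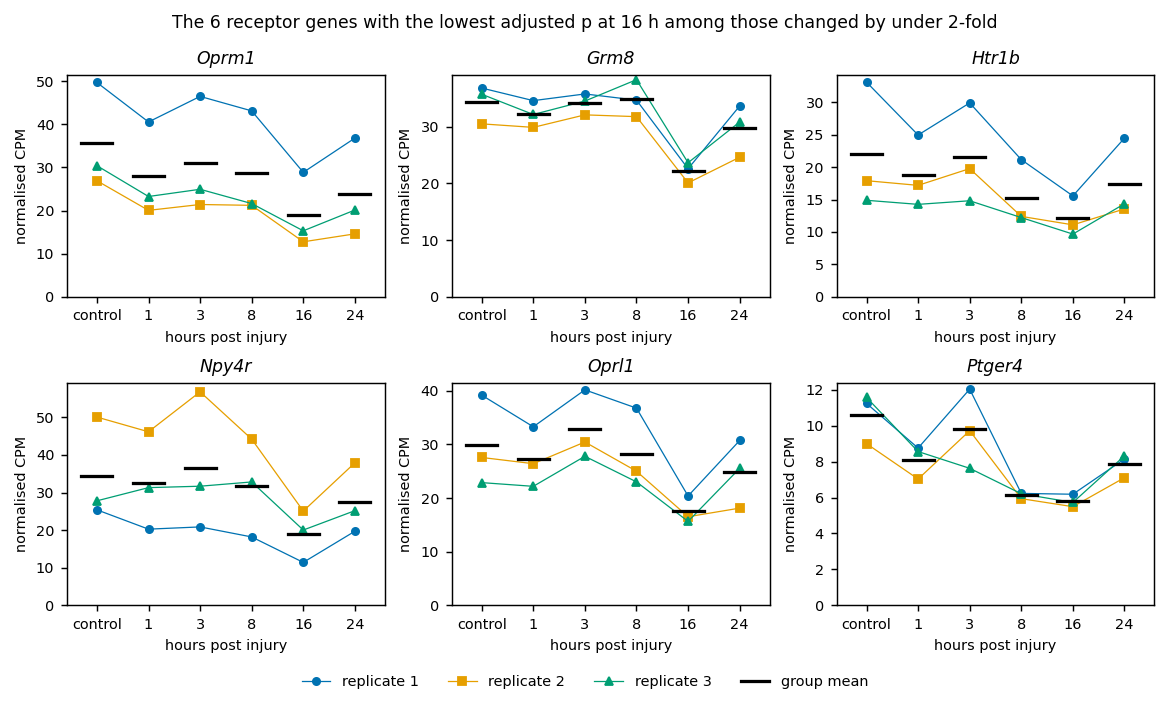
Normalised CPM in each of the 18 libraries of the 6 receptors with the lowest adjusted p at 16 HPI among those that changed by less than 2-fold (Oprm1, Grm8, Htr1b, Npy4r, Oprl1 and Ptger4), with lines joining libraries of the same replicate number. In all 6 genes each library at 16 HPI lies under the control of the same number. The genes were picked by a fit with the replicate term, so this adds no separate support.

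Between 16 and 24 HPI, 11 (22.4%) of the 49 receptors passed as higher, beside 3.59% of all genes, and 4 (8.16%) as lower, beside 6.22%. Those that rose were Gper1, Grm4, Grm8, Htr1b, Htr1d, Npy2r, Npy4r, Oprl1, Oprm1, P2ry2 and Ptger4, and those that fell were Adra2a, Htr5a, S1pr2 and Sstr2. From 8 to 16 HPI, 15 (30.6%) were lower, beside 7.88%, and 2 (4.08%), Chrm4 and S1pr2, were higher, beside 7.30%. The comparisons share the 16 HPI libraries, so the values of a gene in them are not independent.

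By the G protein to which a receptor mainly couples, 13 of 26 Gi/o receptors tested passed as lower at 16 HPI and 0 as higher with edgeR, where 18 had an unadjusted p under 0.05 in either direction and the median log2 fold change was -0.41. Of 11 Gq/11 receptors, 7 were lower and 1, Adra1b, was higher, with a median of -0.42. Of the 2 Gs receptors tested Ptger4 was lower and Adora2a did not pass. Of the 10 that couple to several or other proteins 3 were lower and 3 higher, with a median of -0.23. Of all genes tested 11.5% were lower and 10.7% higher, and 33.6% had an unadjusted p under 0.05. The differences between these classes were not tested.

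The genes of signalling downstream of the receptors changed in part. Of 46 tested genes for G protein subunits and their regulators, 12 passed as lower and 3 as higher at 16 HPI, with a median log2 fold change of -0.07, where 11.5% of all genes were lower and 10.7% higher. The called ones were Rgs5 (-1.30), of a protein family that shuts off G protein signals, and Gna14 (-1.24), a Gq-class subunit. Gna14 held 14.5, 6.78 and 4.14 CPM in controls and 5.12, 3.396 and 1.84 CPM at 16 HPI, and these groups overlapped. Of 13 effectors tested, 8 were lower and 1 higher. The GIRK channel subunit Kcnj3 fell (-1.15), with 12.8, 5.53 and 5.49 CPM in controls and 5.68, 2.72 and 2.32 CPM at 16 HPI, where replicate 1 overlapped control. Kcnj6, another GIRK subunit, rose (2.38) from 0.0508, 0.369 and 0.337 CPM to 1.71, 1.19 and 1.03 CPM, and its groups did not overlap. Only its libraries at 16 HPI were over 1 CPM, so Kcnj6 was tested through that group and had room to rise. Its level in control replicate 1 was under the limit of 3 counts, 0.152 CPM in that library, so the size of the rise is uncertain. Replicate 1 was highest in every group for Gna14 and Kcnj3. The alternatives, such as leaving out the replicate block, were not run for the signalling and ligand genes. At 24 HPI, 8 of the 46 G protein genes were lower and 4 higher, and 5 of the 13 effectors were lower, beside 9.03% of all genes lower and 5.99% higher.

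Among the ligands and the enzymes that make them, 13 of 29 listed genes were tested. At 16 HPI 3 passed as higher with edgeR and 0 as lower, with 4 in either direction at an unadjusted p under 0.05. Of all genes 10.7% were higher and 11.5% lower, and 33.6% had an unadjusted p under 0.05. Ptges, a prostaglandin E synthase, was called (1.06, edgeR adjusted p = 0.00556), with 1.37, 1.03 and 0.915 CPM in controls and 2.63, 1.42 and 2.75 CPM at 16 HPI, without overlap. Its log2 fold change was 0.94 at 8 HPI (edgeR adjusted p = 0.0368) and 0.86 at 24 HPI (edgeR adjusted p = 0.0301).

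The 65 receptors that were not tested were at low counts. In 37 of them no library held more than 3 counts, and 7 of these, Mrgprb2, Mrgprb3, Mrgprb4, Mrgprb8, Mrgprx2, P2ry10b and Npy6r, were at 0 in every library. Of the other 28, Htr7 and S1pr5 reached 24 counts and Htr4 reached 22, and only Htr7 and Htr2a held over 3 counts in all 18 libraries. None of the 5 dopamine receptors was tested. At these depths 3 counts correspond to between 0.131 and 0.318 CPM, so lower levels were not detectable. Among those tested, 35 were over 1 CPM in all 18 libraries and 14 were not, and with the filter set at 1 CPM in all 18 libraries Mrgprx1 alone was called at 16 HPI.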

How the data were processed

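RNA-seq was done on 18 libraries, 3 in each of 6 groups. The authors deposited a table of raw counts per gene for each library, unnormalised. Per the study's methods and the labels, RNA was rRNA-depleted, read in pairs and aligned with STAR to mm10, and counts were made on GENCODE genes. The counter is named as featureCounts in one source and HTSeq in the other, and the counting strand is not given in the sources used here. The 5 entries of each library not on genes, 25.2 to 33.2% of its counts, were left out. Of 47643 identifiers, 47224 were named with GENCODE vM21.

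edgeR 4.0.16 (R 4.3.3) was run with TMM normalisation on genes over 1 CPM in at least 3 libraries, with the time point and the replicate number as terms and Benjamini-Hochberg adjustment over all genes tested. CPM values use the TMM library sizes, and RPKM divides them by the union of exons. The replicate block was used because the study corrected for batch. Deviations from group means correlated with r of 0.484 to 0.765 (mean 0.619) over 45 pairs of libraries with the same number, so the numbers pair the libraries. Over 90 pairs with different numbers r was -0.577 to -0.0423. Those negative values follow from the positive ones once group means are taken out, so they add no separate support. For genes that passed, a shift in the same direction within each replicate number is part of what this fit tests, so it adds no separate support. No 2 libraries were identical. Scripts were tested on simulated data. Some items, among them 1 tested receptor, are counted but not reported by name here.

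The receptors and gene lists were chosen with earlier results of these data known. Named were receptors called in any of 7 comparisons, those that passed against control, with the comparison where they changed most, the 3 with the highest control RPKM of each role, and called genes of the signalling and ligand lists. Exact intervals and the limit of 3 counts cover counting error only. RefSeq promoters were found for 89 of 114 receptors. Alternatives were DESeq2 1.42.0 (test or size factors), other filters, no block, the compared groups alone, a library size without mitochondrial and rRNA genes, and each library left out in turn.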

Additional observations from a re-analysis of the deposited data

Results flagged for a closer look

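In 3 results the change between adjacent times was itself called. From 8 to 16 HPI the log2 fold change of Chrm5 was -1.41 and that of Oprk1 was -1.76, both lower in 3 of 3 replicates. Each was over 1 CPM in 6 libraries and in 0 at 16 HPI, and 3 of those of Chrm5 were at 8 HPI. Both genes thus had room to fall to 16 HPI. From 16 to 24 HPI that of Gper1 was 2.07, higher in 3 of 3 replicates, at 9 counts summed over the 16 HPI libraries. The fit that picked these 3 results holds the replicate term, so the agreement of the replicates adds no separate support.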

How the results depend on the processing

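Of 484 alternative values of 39 named log2 fold changes, 384 kept their direction and their side of the threshold and 0 reversed. The other 100 lost the call, or lost the adjusted p under 0.05 where the gene had passed without being called. Fits that left a gene out or gave it no adjusted p are not among the 484. Without the replicate block, 34 of 39 were lost. That setting called 1 receptor (Adra1b) at 16 HPI and 0 at 24 HPI, from 8 to 16 HPI and from 16 to 24 HPI, and passed 2, 3 and 0 receptors as lower at 8, 16 and 24 HPI. With the filter at 1 CPM in all 18 libraries, which tests 35 receptors, 1 (Mrgprx1) was called at 16 HPI and 0 at 24 HPI, from 8 to 16 HPI and from 16 to 24 HPI. Under a looser filter of 10 counts summed over the libraries, which tests 87 receptors, 4 were called from 8 to 16 HPI. At 24 HPI 13 (14.9%) of these 87 passed as lower, beside 4.15% of all genes tested under that filter. With the compared groups alone, 0 were called at 24 HPI, 1 from 8 to 16 HPI and 0 from 16 to 24 HPI. At 8 HPI that setting passed 4 of 46 receptors as lower, beside 2.18% of all genes. DESeq2 called 0 from 16 to 24 HPI, where it gave Gper1 no adjusted p. Leaving out 1 library gave 0 to 1 called at 8 HPI (1, Gper1, without replicate 2 of 8 HPI), 0 to 3 at 24 HPI (0 without control replicate 1) and 0 to 2 from 16 to 24 HPI (0 without replicate 1 of 16 HPI). It gave 3 to 7 passing as lower at 8 HPI, the fewest without replicate 3 of 8 HPI, 15 to 25 at 16 HPI and 8 to 15 at 24 HPI, the fewest at both times without control replicate 1. The causes were not tested. Depth limits genes near 3 counts, such as Gper1 at 16 HPI.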
